A study of Mus musculus with 18 samples.

Results

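The 10 genes described here build and load major histocompatibility complex (MHC) class I molecules. They were taken by name from a gene-level count table of 55487 genes: the heavy chains H2-K1 and H2-D1, the light chain B2m, the peptide transporter subunits Tap1 and Tap2, tapasin (Tapbp), the immunoproteasome subunits Psmb8, Psmb9 and Psmb10, and the transactivator Nlrc5. All 10 passed a filter on low counts that 15381 genes passed. They were chosen by name, with earlier results of these data known. Mouse embryonic fibroblasts (MEFs), a wild-type line whose strain the labels do not give, were cultured in medium with 1 of 2 fetal bovine sera. Scm is medium with the serum in which cells were sensitive to ferroptosis, an iron-dependent death by lipid peroxidation, and Rcm is medium with the serum in which they were resistant. Steady Scm and steady Rcm cultures were sampled at 0 h. S-Rcm cells were moved from Scm to Rcm and R-Scm cells from Rcm to Scm, and both were sampled at 12 h and at 24 h. Each of the 6 groups had 3 libraries of polyadenylated RNA. No library came from cells given fresh medium with their own serum, so the change of serum and the change of medium cannot be told apart. Steady cultures were sampled at 0 h alone, so time in culture cannot be told apart from the exchange either. The labels do not say whether the 3 libraries of a group came from separate cultures, so p-values measure the spread between these libraries, which may be technical.

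MHC class I molecules display peptides from inside a cell at its surface, where cytotoxic T cells read them. Proteasomes cut proteins into peptides, the TAP transporter carries these into the endoplasmic reticulum, and the loading complex places them on a heavy chain paired with beta-2-microglobulin. Fibroblasts carry class I molecules at a low resting level, and interferons are known to raise the genes of the whole pathway through STAT and IRF factors and NLRC5.

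Total counts ran from 14534906 to 20313715 per library. The cells carried fibroblast marker RNA at a summed level of 8058 to 12540 CPM, the count scaled to library size, over 10 genes. That level was 8572 to 8929 CPM in steady Scm and 10570 to 11350 CPM in steady Rcm, and its part in the results was not tested. Of 12 leukocyte markers, Adgre1, Tyrobp and Cd3e had no count in any library, and the summed level of the list was 14.9 to 17.9 CPM in Scm, 11.7 to 15.3 CPM in Rcm and 10.5 to 19.5 CPM over all libraries. The 5 endothelial markers summed to at most 3.43 CPM and the 5 epithelial markers to at most 1.47 CPM. The MHC class II chains H2-Aa and H2-Ab1, which antigen-presenting cells carry, were also at 0 in all 18 libraries. In bulk RNA, fewer cells of a type and less RNA per cell cannot be told apart. One library stood apart from its group in genes that interferon induces: R-Scm 24 h replicate 1 had 699 CPM summed over 16 such genes, against 257.5 and 250.8 CPM in replicates 2 and 3. Steady Rcm libraries had 597 to 715.4 CPM and steady Scm libraries 117.7 to 125 CPM over the same genes. Results that rest on that library are given with and without it.

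The genes sit in few places on the mouse genome (GRCm38). H2-K1 (ENSMUSG00000061232) lies at chr17:33996017-34000347 on the minus strand and H2-D1 (ENSMUSG00000073411) at chr17:35262730-35267499 on the plus strand. Tapbp (ENSMUSG00000024308) lies at chr17:33915899-33929292. Psmb9 (ENSMUSG00000096727), Tap1 (ENSMUSG00000037321), Psmb8 (ENSMUSG00000024338) and Tap2 (ENSMUSG00000024339) follow each other within 34335 bases at chr17:34181987-34216321. Tap1 and Psmb9 start 211 bases apart on opposite strands, and 212 exon bases belong to both. B2m (ENSMUSG00000060802) is on chromosome 2, at chr2:122147686-122153083. Nlrc5 (ENSMUSG00000074151), at chr8:94434356-94527272, and Psmb10 (ENSMUSG00000031897), at chr8:105935735-105938444, are on chromosome 8. Whether the counting used strand is not given in the sources used here, so reads from the Tap1 and Psmb9 overlap cannot be told apart. The same holds for exon bases that Tap2, Psmb8, Tapbp and Nlrc5 share with genes on the opposite strand, 904 of them for Tapbp. Tapbp also shares 149 exon bases with Zbtb22 on its own strand. Of the H2-D1 transcript, 20.4% matches other genes, H2-Q7 first, at 95% identity or more over at least 100 bases, so part of its count is uncertain. H2-K1, B2m, Tap2, Psmb8, Psmb9, Psmb10 and Nlrc5 had no such stretch.

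Upstream sequence is shown for H2-K1 and B2m, the heavy chain and the light chain that passed the thresholds given below in steady culture. H2-D1 was also higher in every Rcm library but passed neither threshold. Class I promoters are known for a kappa B site, an interferon-stimulated response element (ISRE), a CRE-like site and an inverted CCAAT box. The sequences are from RefSeq promoter windows of GRCm38.p6, the 250 bases before each start. Capitals mark, on either strand, the kappa B letters GGGNNNNNCC, the ISRE letters GAAANNGAAA, the CRE-like letters TGACGT or TGACGC, and the inverted CCAAT letters ATTGG.
H2-K1, chr17:34000348-34000597, minus strand: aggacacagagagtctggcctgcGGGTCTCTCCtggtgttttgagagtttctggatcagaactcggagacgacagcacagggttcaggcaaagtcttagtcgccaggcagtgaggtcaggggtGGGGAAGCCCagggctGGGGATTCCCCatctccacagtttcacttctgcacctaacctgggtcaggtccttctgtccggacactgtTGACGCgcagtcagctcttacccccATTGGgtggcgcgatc
B2m, chr2:122147437-122147686, plus strand: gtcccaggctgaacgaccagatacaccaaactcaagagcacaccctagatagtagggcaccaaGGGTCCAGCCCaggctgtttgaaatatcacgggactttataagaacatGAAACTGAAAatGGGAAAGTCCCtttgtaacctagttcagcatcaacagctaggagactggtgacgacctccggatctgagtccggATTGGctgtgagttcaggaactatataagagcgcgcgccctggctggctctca
H2-D1, chr17:35262907-35262936, plus strand: GGGGAAGCCCagggctGGGGATTCCCCatc

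The H2-D1 line shows 30 bases of a run of 47 bases that was letter for letter the same upstream of H2-D1 and H2-K1, with a pair of kappa B matches. H2-K1 held 3 separate kappa B stretches, 1 CRE-like match and 1 inverted CCAAT match in the window shown. B2m held 1 ISRE match with a kappa B stretch next to it, another kappa B stretch and 1 inverted CCAAT match. The table held 8 of the 10 genes, all but Tap2 and Nlrc5. Of these 8, 1 had the ISRE letters, 5 the kappa B letters, 2 the CRE-like letters and 6 the inverted CCAAT letters. The Tap1 and Psmb9 windows overlap, and their kappa B and inverted CCAAT matches are the same bases read on opposite strands. Among all 32851 promoter windows of the table, of which a gene may have more than 1, the shares were 3.0%, 45.8%, 11.9% and 33.8%. The letters TTCNNNGAA, a match to the gamma-activated sequence, were found in 1 of the 8, Psmb8, and in 7.0% of all promoters. A kappa B match is thus common among promoters in general, and a match is a description of letters only. The letters searched are strict, so a window without a match, such as that of H2-K1 for the ISRE, may still hold a site.

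Levels between genes were compared as CPM per kilobase of exon. All annotated exon bases of a gene were counted, 2938 for H2-K1 and 3381 for Psmb8, where the longest coding transcripts have 1619 and 1628. For B2m both lengths were 860, so levels and ratios between genes depend on the length used. Over the 18 libraries B2m had the highest mean, 560.2, followed by H2-D1 at 75.2, Tapbp at 49.9, H2-K1 at 13.5 and Psmb10 at 10.8. Tap2 (2.91) and Tap1 (2.13) were lower, and Nlrc5 (0.436), Psmb8 (0.377) and Psmb9 (0.216) were the lowest. The light chain was therefore in large excess over each heavy chain gene at the RNA level, and the catalytic immunoproteasome subunits Psmb8 and Psmb9 were close to the detection limit. Psmb8 had 4 to 51 counts in a library and Psmb9 0 to 33, so values of both carry large counting errors.

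**Figure D1:**
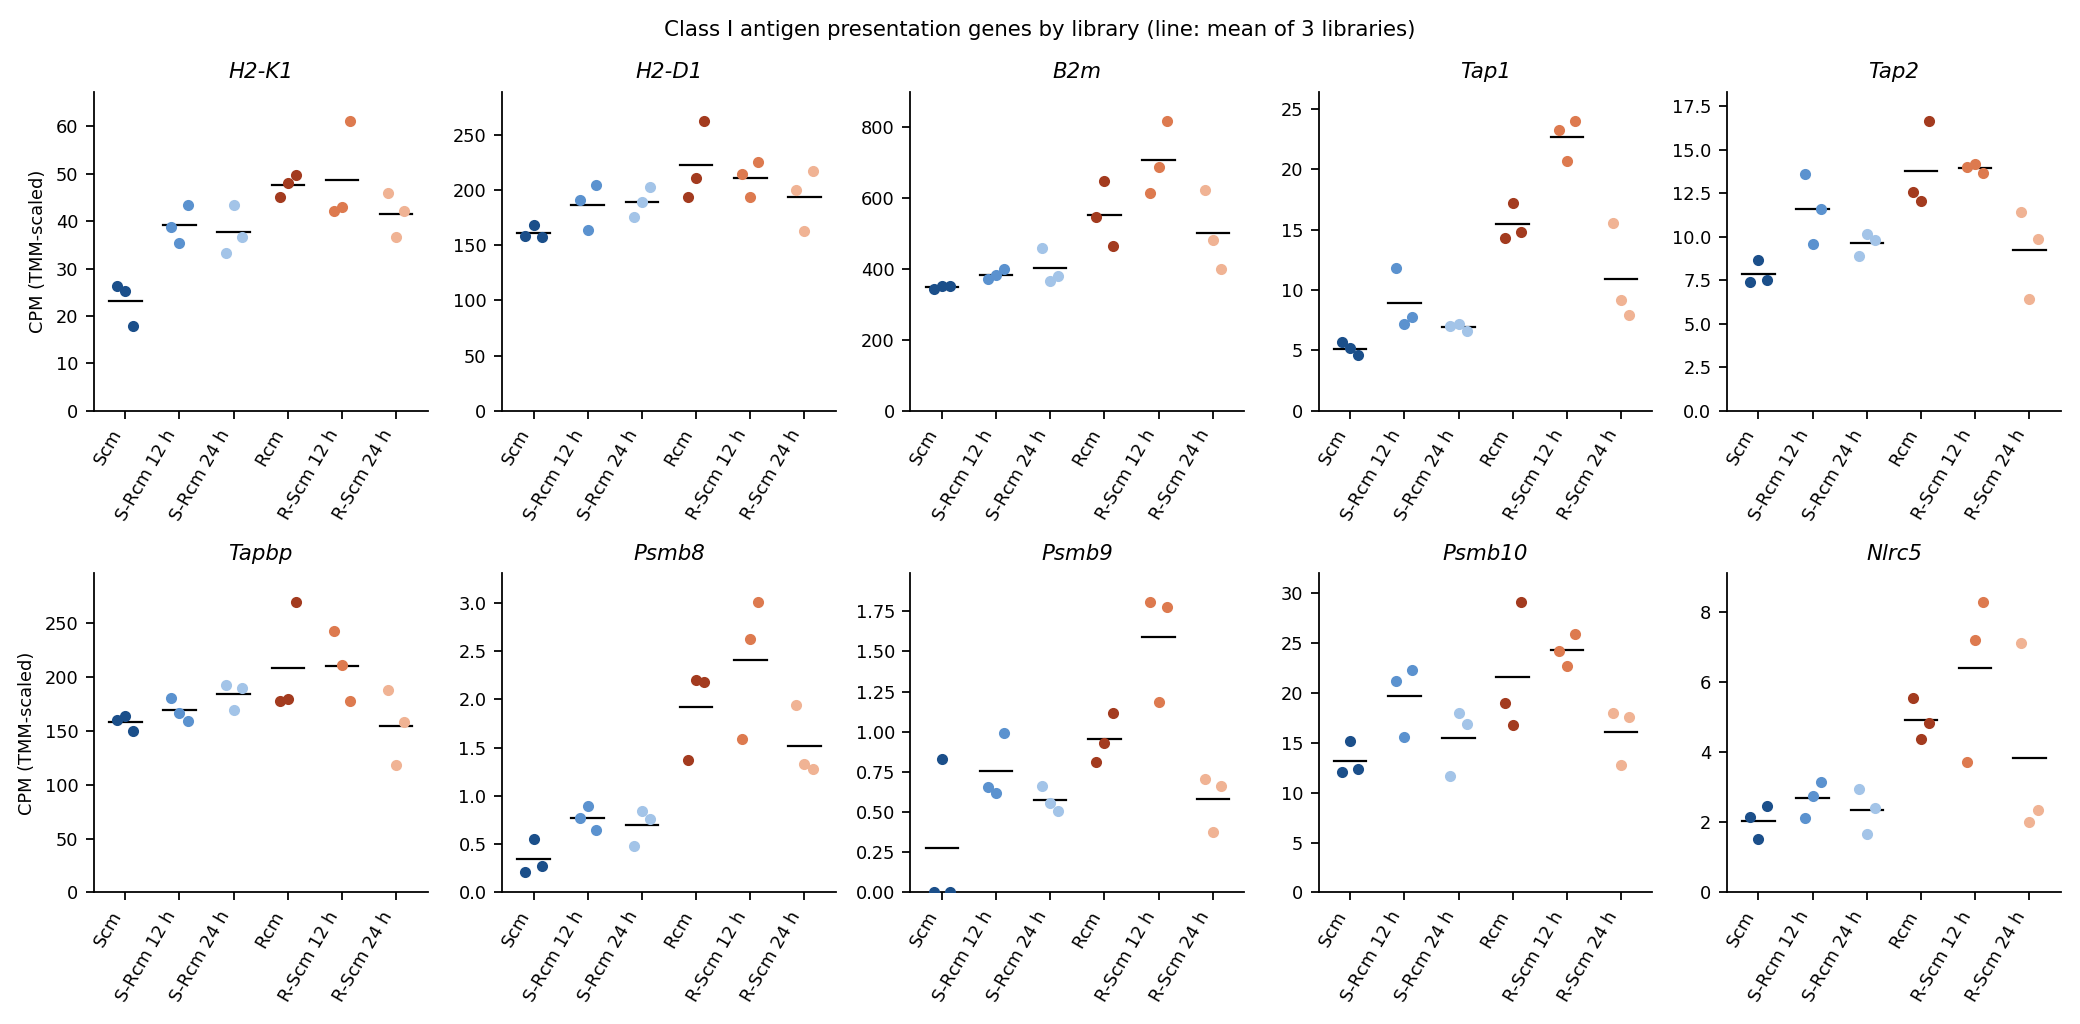
CPM (y axis, from 0, a separate scale in each panel) of the 10 class I genes in each library, by group (x axis); points are libraries and lines are means of 3. R-Scm 12 h or Rcm had the highest mean in every panel, and Scm the lowest in every panel but that of Tapbp, where it was R-Scm 24 h.

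Steady culture in Rcm and in Scm was compared first, which asks how the sera differ without an exchange. All 10 genes had a higher mean in Rcm, and in 9 of 10 every Rcm library lay above every Scm library, against 12.8% of all genes tested. A gene was called where the log2 fold change passed 0.58 in size and the p of edgeR's quasi-likelihood test, adjusted by Benjamini-Hochberg over the 15381 genes, was under 0.05. By this rule 5 of 10 genes were higher in Rcm and none lower. Among all genes tested, 1.67% were higher by that rule. The median log2 fold change was 0.93 over the 10 genes and 0.012 over all genes. DESeq2 called 6 of the 10. The shares of all genes called, here and below, are from edgeR with adjusted p alone. They are no measure for counts by DESeq2 or by unadjusted p, for which no share is given.

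H2-K1, a classical heavy chain, had 26.4, 25.2 and 17.9 CPM in the 3 Scm libraries and 45.0, 48.1 and 49.7 CPM in Rcm. The groups did not overlap, with a log2 fold change of 1.04 (SE 0.17, adjusted p = 0.0019, edgeR). H2-D1, the other classical heavy chain in this list, had 158.3, 168.5 and 157.1 CPM in Scm and 193.8, 211.0 and 262.6 CPM in Rcm. Its libraries did not overlap, but at 0.46 (SE 0.12, adjusted p = 0.055, edgeR) it passed neither threshold. B2m, the light chain, had 343.6, 351.1 and 352.4 CPM in Scm, a narrow spread (SD 4.76, n = 3). In Rcm it had 544.1, 645.6 and 464.0 CPM and rose by 0.66 on the log2 scale (SE 0.15, adjusted p = 0.0237, edgeR).

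Among the genes of peptide transport and loading, Tap1 rose most. Tap1 had 5.67, 5.20 and 4.60 CPM in Scm and 14.3, 17.2 and 14.8 CPM in Rcm, which amounts to 1.58 on the log2 scale (SE 0.23, adjusted p = 0.00087, edgeR). Its partner Tap2 had 7.38, 8.67 and 7.49 CPM in Scm and 12.5, 12.0 and 16.7 CPM in Rcm (log2 fold change 0.81, SE 0.19, adjusted p = 0.0273, edgeR). Both transporter subunits were thus higher in every Rcm library. Tapbp, which bridges the transporter and the heavy chain, had 160.3, 163.5 and 150.0 CPM in Scm and 177.7, 179.3 and 269.6 CPM in Rcm. The high value of Rcm replicate 3 set much of that difference, and the log2 fold change of 0.40 (SE 0.17, adjusted p = 0.25, edgeR) did not pass.

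Psmb8, which replaces the proteasome subunit Psmb5, had the largest fitted fold change of the 10 genes with all libraries, though Psmb9 could not be ranked without Scm replicate 2. It had 4, 8 and 4 counts in the Scm libraries and 22, 33 and 43 counts in the Rcm libraries. The groups did not overlap, and the log2 fold change was 2.47 (SE 0.39, adjusted p = 0.0018, edgeR). Psmb9, which replaces Psmb6, had 0, 12 and 0 counts in Scm and 13, 14 and 22 counts in Rcm. Scm replicate 2 had 0.832 CPM, above the lowest Rcm library at 0.811 CPM, so the groups overlapped and the difference of 1.86 (SE 0.74, adjusted p = 0.22, edgeR) did not pass. Without Scm replicate 2 both Scm libraries are at 0 counts and Psmb9 passed in Rcm vs Scm, in both S-Rcm groups and in R-Scm 24 h vs Scm. Psmb10, which replaces Psmb7, had 12.1, 15.2 and 12.4 CPM in Scm and 19.0, 16.8 and 29.1 CPM in Rcm (log2 fold change 0.72, SE 0.21, adjusted p = 0.093, edgeR), without overlap. Nlrc5, the transactivator of class I genes, had 2.14, 1.53 and 2.47 CPM in Scm and 5.55, 4.39 and 4.83 CPM in Rcm. Its libraries did not overlap either, and the log2 fold change was 1.26 (SE 0.42, adjusted p = 0.133, edgeR).

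The 5 calls of steady culture were not equally firm. H2-K1, Tap1 and Psmb8 passed when any single library of either group was left out, whereas B2m was lost in 5 and Tap2 in 5 of the 6 such fits. Without any 1 of Scm replicate 1, Scm replicate 3 and Rcm replicate 1, the count was 3, and otherwise it was 4. Rcm replicate 3 differed from Rcm replicates 1 and 2 by 38 and 36.8 times the sampling noise (chi-square per degree of freedom). Rcm replicates 1 and 2 differed from each other by 11.1 times. Rcm replicate 3 had the highest Rcm value of H2-K1, H2-D1, Tap2, Tapbp, Psmb9 and Psmb10, and the lowest of B2m. Without it the log2 fold change of Tap2 was 0.64.

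**Figure D2:**
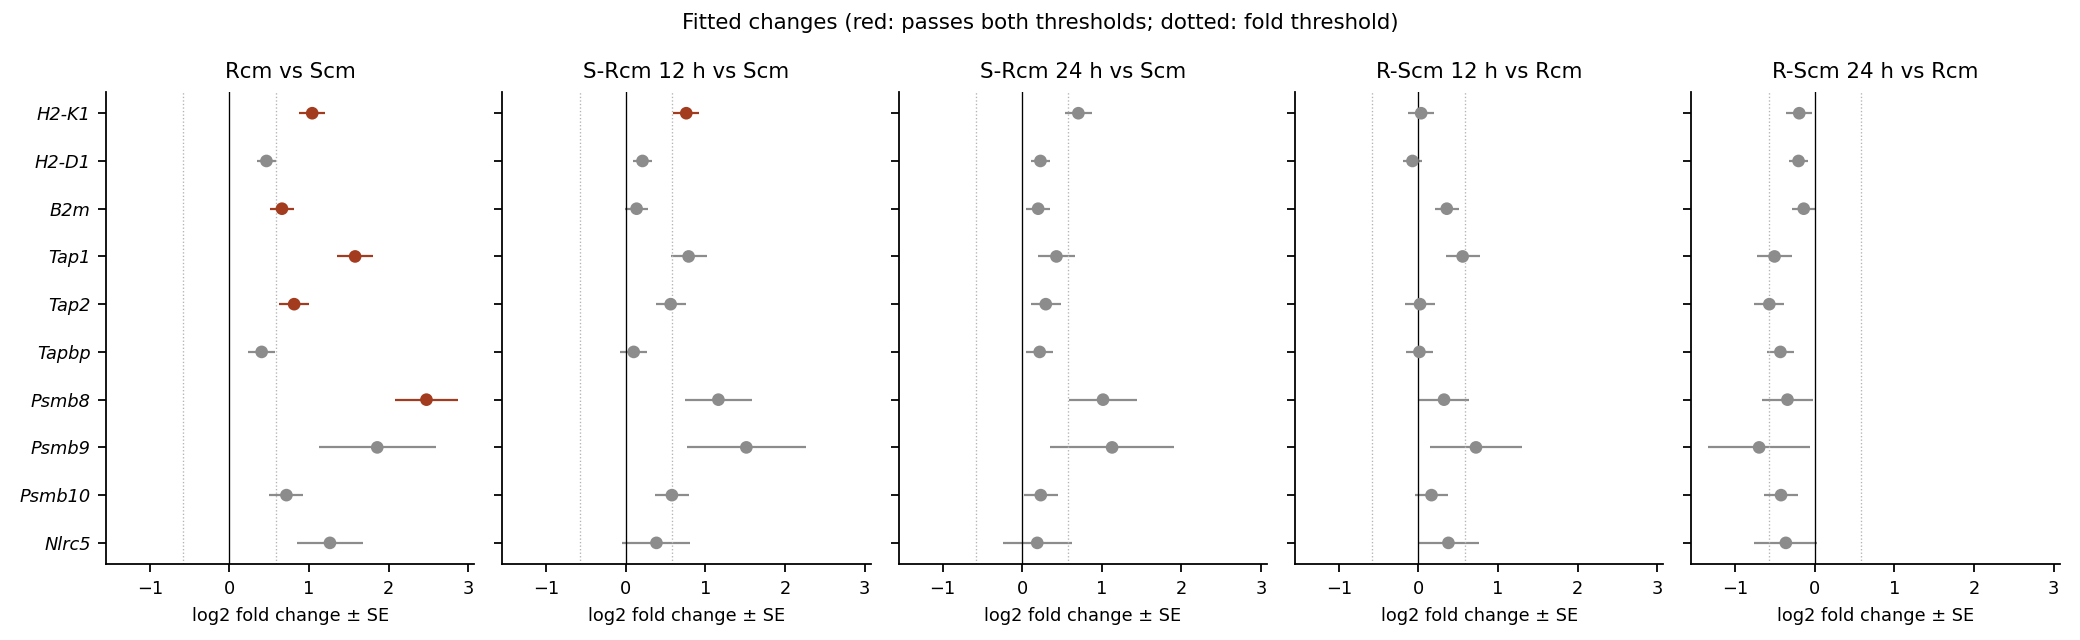
Fitted log2 fold changes with standard errors (x axis) of the 10 genes (y axis) in the 5 comparisons of steady and exchanged cultures; red points pass both thresholds and dotted lines mark a log2 fold change of 0.58 in either direction. The 5 red points of Rcm vs Scm run from 0.66 (B2m) to 2.47 (Psmb8), and H2-K1 in S-Rcm 12 h vs Scm is the other red point.

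Cells moved from Scm to Rcm were compared with steady Scm cells, which asks how fast the genes take on the level of the new serum. At 12 h all 10 log2 fold changes were positive, from 0.10 (Tapbp) to 1.51 (Psmb9), with a median of 0.57 against 0.019 over all genes. H2-K1 alone passed, against 0.598% of all genes tested that were higher by the same rule. It had 38.7, 35.4 and 43.5 CPM, all above the Scm libraries, with a fitted difference of 0.76 (log2, SE 0.17, adjusted p = 0.0321, edgeR). That call was lost without any 1 of the 6 libraries and with the replicate number as a block. Without Scm replicate 2, Psmb9 passed in place of H2-K1. The libraries of 6 of 10 genes lay above every Scm library, as those of 14.4% of all genes did. Tap1 was among them, with 11.8, 7.17 and 7.79 CPM and a log2 fold change of 0.79 (SE 0.23, adjusted p = 0.106, edgeR). DESeq2 called both H2-K1 and Tap1.

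At 24 h in Rcm none of the 10 genes passed in edgeR's quasi-likelihood test, 2 had an unadjusted p under 0.05, and DESeq2 called 1, H2-K1. Among all genes tested 0.338% were called in either direction. The 10 log2 fold changes were again positive, with a median of 0.27 against 0.0061 over all genes, and 6 of 10 genes had no overlap with Scm, against 10.6% of all genes. H2-K1 had 33.3, 43.5 and 36.6 CPM, and its log2 fold change of 0.71 (SE 0.17, adjusted p = 0.082, edgeR) was close to that at 12 h. Tap1 had 7.05, 7.21 and 6.64 CPM, a narrow range just above the Scm libraries. B2m had 457.2, 366.2 and 380.3 CPM, also above every Scm library. Between 24 h and 12 h in Rcm, none of the 10 genes passed in edgeR or DESeq2, and none had an unadjusted p under 0.05 (0.156% of all genes tested were called). Their log2 fold changes ran from -0.38 to 0.12.

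Set against steady Rcm, S-Rcm cells were lower in all 10 genes at both times. At 12 h none passed in edgeR's quasi-likelihood test (0.871% of all genes tested did), 4 had an unadjusted p under 0.05, and DESeq2 called Psmb8 and Tap1. The S-Rcm libraries of 5 of 10 genes lay below every Rcm library, against 10.3% of all genes. Psmb8 was at 0.767, 0.897 and 0.644 CPM, against 1.37 to 2.20 CPM in Rcm (log2 fold change -1.31, SE 0.34, adjusted p = 0.079, edgeR). B2m was at 369.9, 382.0 and 398.3 CPM, below the lowest Rcm library at 464.0 CPM, with a log2 fold change of -0.52 (SE 0.15, adjusted p = 0.104, edgeR). At 24 h 1 of 10 genes was lower by the rule, where 0.156% of all genes tested were. This was Tap1, at -1.15 (SE 0.22, adjusted p = 0.0379, edgeR), a call that was lost without any 1 of the 6 libraries. In 7 of 10 genes the 24 h libraries lay below every Rcm library, against 6.92% of all genes. Both comparisons of S-Rcm cells with Scm and with Rcm use the same S-Rcm libraries, so their values are not independent.

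Cells moved from Rcm to Scm were compared with steady Rcm cells, which asks whether the higher level is lost again. At 12 h in Scm none of the 10 genes passed in edgeR or DESeq2, and 2 had an unadjusted p under 0.05 (2.74% of all genes tested were called in either direction). All log2 fold changes but that of H2-D1 (-0.08) were positive, with a median of 0.24 against -0.0077 over all genes. Tap1 had 23.3, 20.7 and 24.0 CPM, all above the Rcm libraries, with a log2 fold change of 0.55 (SE 0.21, adjusted p = 0.164, edgeR). Psmb9 was the other gene without overlap, with 33, 23 and 29 counts, and 11.7% of all genes had libraries above every Rcm library. B2m was at 612.7, 686.9 and 816.3 CPM against 464.0 to 645.6 CPM (log2 fold change 0.36, SE 0.15, adjusted p = 0.211, edgeR). Against steady Scm, 8 of 10 genes were higher after 12 h in the same medium (3.10% of all genes tested were), all but H2-D1 and Tapbp. All 10 genes had no overlap, against 19.1% of all genes, and the median log2 fold change was 1.04 against 0.0029. Tap1 was higher by 2.13 (SE 0.23, adjusted p = 4.3e-05, edgeR), Psmb8 by 2.79 (SE 0.39, adjusted p = 0.00037, edgeR) and B2m by 1.01 (SE 0.15, adjusted p = 0.00070, edgeR). B2m, H2-K1, Tap1 and Psmb8 kept their calls without any single library, and 4 of the 8 were called without Scm replicate 1 or without Scm replicate 3. This comparison shares the Scm libraries with that of steady Rcm.

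At 24 h in Scm all 10 log2 fold changes against Rcm were negative, from -0.70 (Psmb9) to -0.14 (B2m), with a median of -0.39 against -0.0013 over all genes. None passed in edgeR or DESeq2, 3 had an unadjusted p under 0.05, and 0.377% of all genes tested were called in either direction. Psmb9 and Tap2 had libraries below every Rcm library, as 5.64% of all genes did. The 3 libraries did not move together. Tap1 had 15.6 CPM in replicate 1 and 9.15 and 7.95 CPM in replicates 2 and 3, against 14.3 to 17.2 CPM in Rcm. Nlrc5 had 7.13, 2.02 and 2.35 CPM, so that replicate 1 lay above every Rcm library and the other libraries inside the range of Scm. B2m had 620.7, 481.2 and 400.1 CPM.

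In replicates 2 and 3 all 10 genes lay below the Rcm mean, by a median log2 ratio of -0.76 and -0.47, and in replicate 1 it was 6 of 10, by a median of -0.10. Replicate 1 is the library with 699 CPM over the interferon-induced genes. It was singled out by genes whose profile is close to that of the class I genes, so values without it describe the other libraries and are no independent support for a lower level. Without it, Tap1 (-0.85, log2) and Tap2 (-0.75) passed in R-Scm 24 h vs Rcm, 2 of 10 genes in place of 0, while the share of all genes tested that passed in either direction went from 0.377% to 3.19%. With the 3 libraries, Tap2 (11.4, 6.44 and 9.89 CPM) had a log2 fold change of -0.57 (SE 0.19, adjusted p = 0.23, edgeR) and Tap1 of -0.51 (SE 0.22, adjusted p = 0.41, edgeR).

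**Figure D3:**
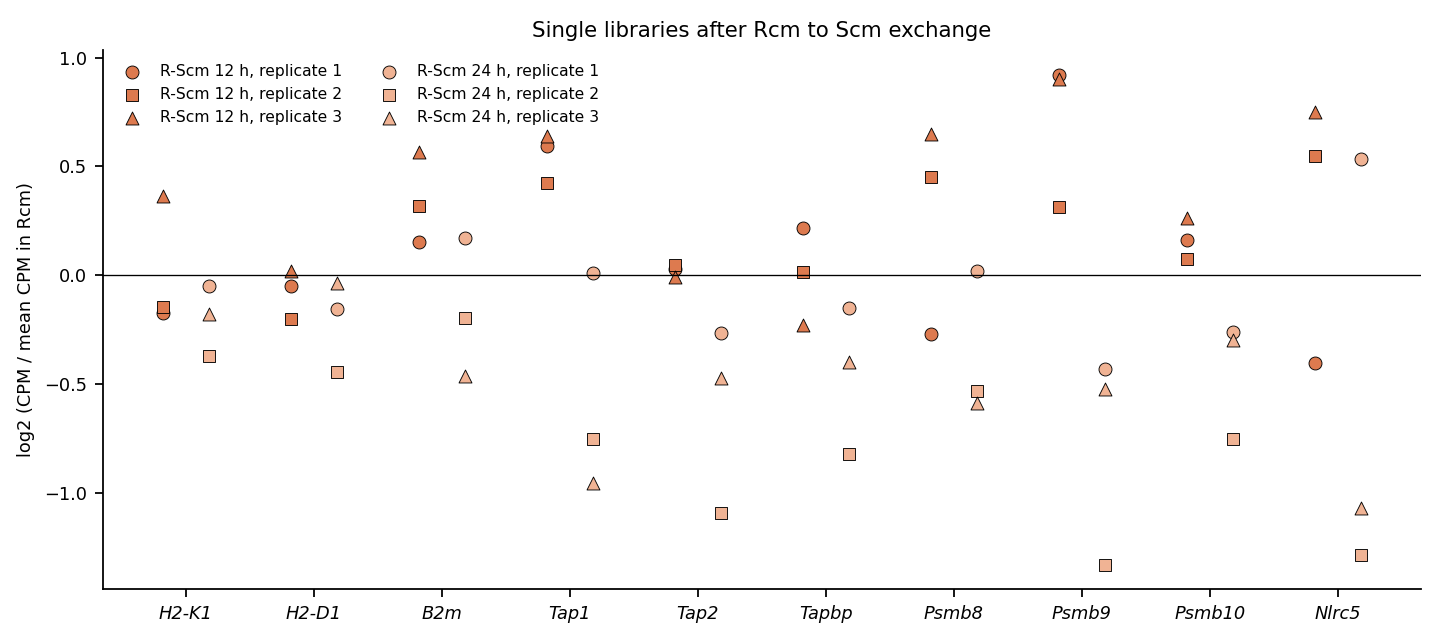
Log2 ratio of CPM in each R-Scm library to the mean CPM of the 3 Rcm libraries (y axis) for the 10 genes (x axis); symbols mark the replicate and colours the time. Squares and triangles of 24 h lie below 0 for all 10 genes, whereas the circles of 24 h replicate 1 lie near or above 0 for H2-K1, B2m, Tap1, Psmb8 and Nlrc5.

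Between 24 h and 12 h in Scm, Tap1 fell by 1.06 on the log2 scale (SE 0.22, adjusted p = 0.0230, edgeR), 1 of 10 genes where 0.442% of all genes tested were lower. All 10 log2 fold changes were negative, 6 had an unadjusted p under 0.05, and the median was -0.59 against 0.0031 over all genes. The Tap1 call was kept without R-Scm 24 h replicate 1, where B2m, Nlrc5 and Tap2 also passed, so that 4 genes were called and 1.97% of all genes tested, in either direction. It was lost without any other library of R-Scm 24 h and without replicate 1 or 3 of R-Scm 12 h. Against steady Scm, 3 of 10 genes were still higher at 24 h (0.507% of all genes tested were): Psmb8 by 2.13 (SE 0.40, adjusted p = 0.0212, edgeR), Tap1 by 1.07 (SE 0.23, adjusted p = 0.0479, edgeR) and H2-K1 by 0.84 (SE 0.17, adjusted p = 0.0292, edgeR). None of these 3 calls held without R-Scm 24 h replicate 1, without Scm replicate 1 or without Scm replicate 3. Without Scm replicate 2, H2-K1 and Tap1 were lost as well, and without R-Scm 24 h replicate 3, H2-K1. H2-K1 had 46.0, 36.7 and 42.1 CPM, all above the highest Scm library at 26.4 CPM, and its log2 fold change without R-Scm 24 h replicate 1 was 0.77. Tapbp had 188.3, 118.1 and 158.2 CPM, a mean of 155 CPM that is near that of Scm (158 CPM).

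The opposite exchanges were compared as the difference between the change of R-Scm cells from Rcm and that of S-Rcm cells from Scm. At 12 h none of the 10 genes passed an adjusted p under 0.05 in edgeR or DESeq2, 1 had an unadjusted p under 0.05, and 2.22% of all genes tested passed. At 24 h none passed an adjusted p under 0.05 in edgeR, as 1.43% of all genes tested did. An unadjusted p under 0.05 was found in 7, and DESeq2 called 1, counts without a share of all genes beside them. All 10 differences at 24 h were negative, from -1.83 to -0.34. H2-K1 had the smallest adjusted p, with a difference of -0.90 (SE 0.23, adjusted p = 0.068, edgeR), made of -0.20 after Rcm to Scm and 0.71 after Scm to Rcm. Without R-Scm 24 h replicate 1, H2-K1, Tap1 and Tap2 passed at 24 h, 3 of 10 genes, and 5.49% of all genes tested did. Other libraries changed the result too. Without Scm replicate 2, which leaves Scm at 0 counts of Psmb9, that gene passed at 12 h and at 24 h. Without R-Scm 12 h replicate 3, H2-K1 passed at 12 h.

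The order of the 6 groups was much alike from gene to gene, though most neighbours in it overlapped. In H2-K1, Tap1, Nlrc5 and Psmb8 the means ran from R-Scm 12 h over Rcm, R-Scm 24 h, S-Rcm 12 h and S-Rcm 24 h down to Scm. For H2-K1 the only neighbours without overlap were S-Rcm 24 h and Scm, and for Psmb8 they were R-Scm 24 h and S-Rcm 12 h. For Tap1 R-Scm 12 h stood above Rcm, and S-Rcm 24 h above Scm. In B2m only S-Rcm 12 h and Scm, at the low end of the order, did not overlap. Psmb9 had a gap between R-Scm 12 h and Rcm alone. In H2-D1, Tap2, Tapbp, Psmb10 and Nlrc5 all neighbours overlapped. From the highest to the lowest group, the means differed 6.92-fold for Psmb8, 5.73-fold for Psmb9 (its Scm mean comes from replicate 2 alone), 4.40-fold for Tap1, 3.13-fold for Nlrc5, 2.11-fold for H2-K1 and 2.02-fold for B2m. The ratio was 1.84 for Psmb10, 1.78 for Tap2, 1.38 for H2-D1 and 1.36 for Tapbp, the genes with the flattest profile.

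Ratios within a library compare genes without a scaling factor. Psmb10 stood at 9.41%, 10.8% and 10.5% of Psmb7, the constitutive subunit it replaces, per kilobase in Scm, and at 21.8%, 18.4% and 23.1% in Rcm. The libraries did not overlap, and the geometric means were 10.2% and 21.0%. After Scm to Rcm exchange the mean ratio was 15.1% at 12 h and 13.2% at 24 h, both above every Scm library. After the reverse exchange it was 20.9% at 12 h, and at 24 h it was 19.3% in replicate 1 and 11.2% and 12.3% in replicates 2 and 3. Psmb8 stood at 0.0585% to 0.123% of Psmb5 in Scm and at 0.528% to 0.809% in Rcm. Its highest ratio, 1.20% in R-Scm 12 h replicate 3, was still a small share, so constitutive subunit RNA remained in large excess in every library. Psmb9 reached 0.357% to 0.413% of Psmb6 in Rcm, and in Scm it was at 0 counts in 2 of 3 libraries. Psmb5, Psmb6 and Psmb7 themselves had log2 fold changes of -0.37, -0.19 and -0.34 in Rcm vs Scm, none of which passed.

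**Figure D4:**
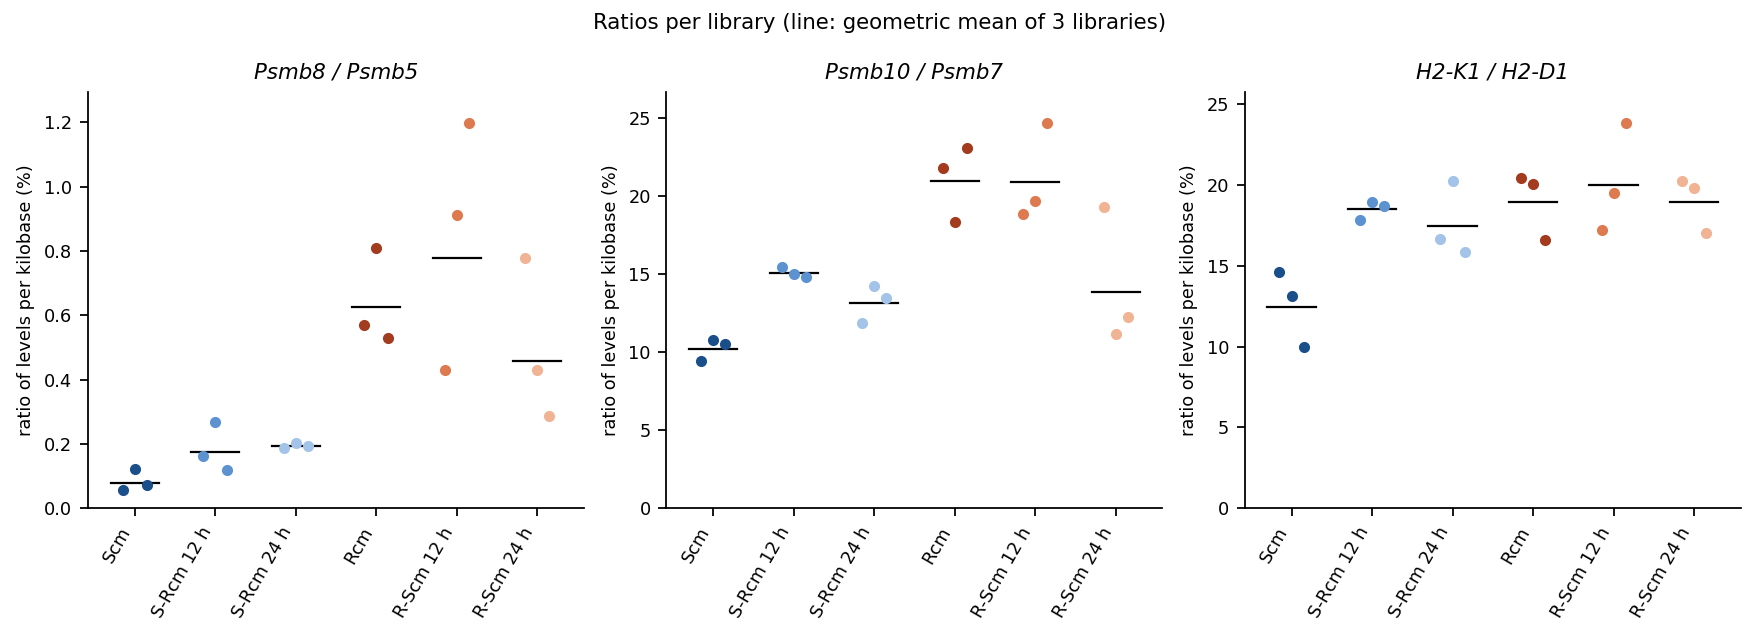
Ratio of levels per kilobase, in percent (y axes from 0), of Psmb8 to Psmb5, Psmb10 to Psmb7 and H2-K1 to H2-D1 in each library by group (x axis); lines are geometric means of 3. Psmb10 to Psmb7 is 9.41% to 10.8% in Scm and 18.4% to 23.1% in Rcm, and H2-K1 to H2-D1 is lowest in the 3 Scm libraries.

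The ratio of the classical heavy chains was lowest in steady Scm. H2-K1 stood at 14.6%, 13.1% and 9.99% of H2-D1 per kilobase in Scm and at 20.4%, 20.01% and 16.6% in Rcm. The ratio was above every Scm library in all 15 other libraries, 15.8% to 23.8%, and the geometric means of the 5 other groups lay between 17.5% and 20%. Counts of H2-D1 include reads that its copies may share, as given above. Summed over 16 class I heavy chain genes, the level was 271.7, 285.6 and 252.9 CPM in Scm and 369.0, 403.9 and 468.6 CPM in Rcm, of which H2-K1 and H2-D1 made up 60.6% to 71.8% in the 18 libraries. With 3 libraries against 3, the two-sided exact permutation test used for such a ratio or sum cannot give a p under 0.1, so the ratios are given as values.

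Other genes of the pathway were taken from lists chosen by function. Of 18 other class I and class I-like heavy chain genes 13 were tested. In Rcm vs Scm 2 of 13 were higher, against 1.67% of all genes tested, and none lower. The median log2 fold change of the 13 was 0.60. H2-Q4, a nonclassical heavy chain, rose by 1.48 (SE 0.17, adjusted p = 0.00013, edgeR), from 14.0 to 15.2 CPM in Scm to 33.7 to 45.5 CPM in Rcm. It was also called in S-Rcm 12 h vs Scm, at 0.84 (SE 0.17, adjusted p = 0.0208, edgeR). H2-T22, a nonclassical heavy chain that gamma delta T cells bind, rose by 0.66 in Rcm (SE 0.15, adjusted p = 0.0274, edgeR). In R-Scm 12 h vs Scm 4 of 13 were higher (3.10% of all genes tested were). They were H2-Q4, H2-T22, H2-Q7 and H2-T10, the last 2 named after their values were seen. Close copies among these genes make single counts uncertain, and H2-Q1 was at 0 counts in some libraries and at up to 101 in others.

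Of 15 tested genes of peptide trimming, chaperoning and loading, 1 was higher in Rcm than in Scm (1.67% of all genes tested were) and none lower. This was Erap1, the aminopeptidase that trims peptides in the endoplasmic reticulum, at 31.4 to 35.4 CPM in Scm and 45.2 to 66.4 CPM in Rcm (log2 fold change 0.80, SE 0.20, adjusted p = 0.0375, edgeR). Hspa5, the main endoplasmic reticulum chaperone, and Calr, calreticulin of the loading complex, had another pattern. Hspa5 rose at 12 h in both directions of exchange, by 1.09 in S-Rcm vs Scm (SE 0.16, adjusted p = 0.0037, edgeR) and by 0.88 in R-Scm vs Rcm (SE 0.16, adjusted p = 0.0044, edgeR). Calr rose by 0.62 in S-Rcm 12 h (SE 0.07, adjusted p = 0.00016, edgeR), and its log2 fold change in R-Scm 12 h was 0.29. None of the 10 class I genes passed in both of these comparisons. All 17 constitutive proteasome genes were tested, and none was called in any of the 11 comparisons between groups by edgeR or by DESeq2. At an unadjusted p under 0.05, 1 of the 17 passed in Rcm vs Scm, where their median was -0.047. In R-Scm 12 h vs Rcm 7 of the 17 did, with a median log2 fold change of 0.19. The median of the 10 class I genes in that comparison was 0.24.

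Of 31 tested regulators of the pathway, 5 were higher in Rcm than in Scm (1.67% of all genes tested were) and none lower. Usp18, a brake on interferon signalling that interferon itself induces, rose by 3.27 (SE 0.49, adjusted p = 0.0017, edgeR). Irf7, a factor of the type I interferon response, rose by 1.92, and Stat2 and Irf9, which carry interferon signals to the nucleus, rose by 1.66 and 1.45. The other 26 had log2 fold changes that did not pass, and the list's median was 4.9e-05 against 0.012 over all genes. In the 4 comparisons of exchanged cells with their source, none of the 31 passed in edgeR, 3 to 7 had an unadjusted p under 0.05, and DESeq2 called 1, in S-Rcm 12 h vs Scm. All 16 genes of a list of interferon-induced genes were higher in Rcm, a list chosen with these results known and therefore a description, with a median of 2.98, Oasl2 (3.70), Ifit1 (3.64), Ifi44 (3.51), Mx2 (3.50), Ifit3 (3.34) and Oas1a (3.05) leading. The 8 interferon ligand genes had at most 2 counts in any library, and 5 of them, Ifna1, Ifna4, Ifna5, Ifng and Ifnl2, had none in any library. Of 9 class II genes 1 was tested, and this was H2-DMa, named after its values were seen, at -0.49 in Rcm vs Scm, which did not pass. It was lower in R-Scm 12 h vs Scm (-0.70, SE 0.20, adjusted p = 0.0402, edgeR).

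**Figure D5:**
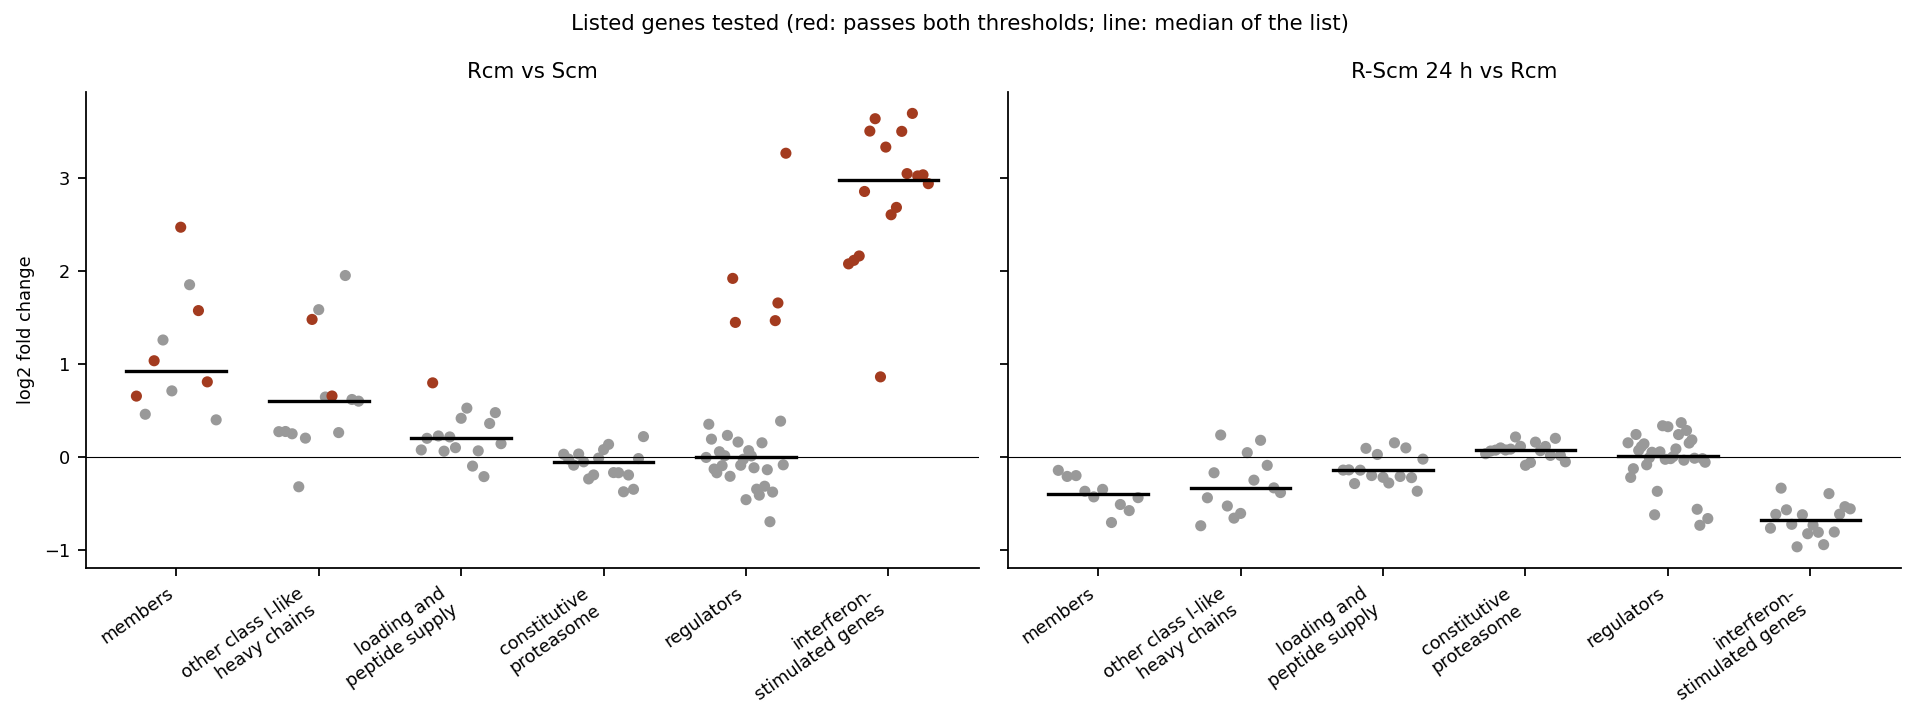
Log2 fold changes (y axis) of the tested genes of 6 lists (x axis) in Rcm vs Scm and in R-Scm 24 h vs Rcm; red points pass both thresholds and lines are medians of a list. In Rcm vs Scm the medians are 0.93 for the 10 class I genes, 0.60 for other heavy chains and 2.98 for interferon-induced genes, and -0.047 for the constitutive proteasome.

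The genes with the profile most like the 10 were found by Pearson's r between their log2 CPM and the mean standardised log2 CPM of the 10, over the 18 libraries, among genes with a mean of at least 1 CPM. The 5 highest were H2-Q4 (r = 0.972), Parp10 (0.965), Ifi35 (0.944), Igtp (0.941) and Isg15 (0.941). These values describe libraries that share groups and scaling. Within the list, r of each gene with the mean of the other 9 ran from 0.623 (Tapbp) to 0.904 (Tap1).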

How the data were processed

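RNA from 18 MEF libraries, 6 groups of 3, was sequenced as paired ends on an Illumina NovaSeq by the authors and aligned with HISAT2 2.0.5 to GRCm38. The deposited values are whole read counts per gene, not normalised; the counting tool, its strand setting and its treatment of reads with several matches are not given in the sources used here. Groups came from the sample labels. The count table numbers the replicates 1, 3 and 4 in 3 groups where the titles number them 1, 2 and 3. The members and lists were chosen with earlier results of these data known.

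Counts of all 18 libraries were fitted together with edgeR 4.0.16 (TMM scaling, filterByExpr, robust quasi-likelihood test, R 4.3.3), 15381 genes after 40106 were removed, leaving 12 residual degrees of freedom and a common dispersion of 0.0298. A gene was called past a log2 fold change of 0.58 in size, the study's threshold, with a Benjamini-Hochberg adjusted p under 0.05, and differences between exchanges by adjusted p under 0.05. Printed CPM values are counts scaled by the TMM-adjusted totals of the genes tested. Ratios between genes were taken per kilobase of exon, and standard deviations are over libraries. Standard errors (SE) of edgeR's log2 fold changes were derived from the fold change and the quasi-likelihood F statistic of the joint fit. Named genes of other lists were those called in any of the 5 comparisons of steady and exchanged cultures, up to 6 per list by size of change, and other names are marked in the text. Gene positions came from GENCODE M21, in which 55227 of 55487 identifiers were found, and promoter windows from RefSeq.

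Library totals of 14534906 to 20313715 counts left Psmb8 and Psmb9 with few counts. Replicates of a group differed by 10.2 to 45.1 times the sampling noise (chi-square per degree of freedom), so no library was a copy of another. The fit was tested on simulated counts of the same design. The alternatives were DESeq2 1.42.0, other filters and scaling, fits of the groups compared alone, an adjusted p under 0.01, a replicate block and leaving out each library. Some listed genes are not reported here by name.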

Additional observations from a re-analysis of the deposited data

How the results depend on the processing

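Among the counts of class I genes called, 164 values under alternatives lay within 1.5 times that reported and 50 did not. With an adjusted p under 0.01, 3 genes were called in Rcm vs Scm, 4 in R-Scm 12 h vs Scm, and 0 in S-Rcm 12 h vs Scm, R-Scm 24 h vs Scm, S-Rcm 24 h vs Rcm and R-Scm 24 h vs R-Scm 12 h, since the threshold is stricter. DESeq2 called 2 in S-Rcm 12 h vs Scm, 1 in S-Rcm 24 h vs Scm, 2 in S-Rcm 12 h vs Rcm and 2 in S-Rcm 24 h vs Rcm, the same counts on 18 libraries and on the 2 groups. Against Rcm the genes were Psmb8 and Tap1 on 18 libraries and Nlrc5 and Tap1 on the 2 groups. On 18 libraries it called 1 in the difference between exchanges at 24 h. With edgeR on the 2 groups, 0 were called in R-Scm 24 h vs Scm and in R-Scm 24 h vs R-Scm 12 h. With at least 10 counts in every library, Psmb8 and Psmb9 were not tested and 1 was called in R-Scm 24 h vs Scm. Except where stated, the cause was not tested.

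Leaving out each library gave 3 to 4 calls in Rcm vs Scm, 0 to 2 in R-Scm 24 h vs Rcm, 0 to 1 in S-Rcm 12 h vs Scm, 0 to 1 in S-Rcm 24 h vs Scm, 4 to 7 in R-Scm 12 h vs Scm, 0 to 3 in R-Scm 24 h vs Scm, 0 in S-Rcm 24 h vs Rcm, 0 to 4 in R-Scm 24 h vs R-Scm 12 h, and 0 to 1 and 0 to 3 in the difference between exchanges at 12 h and 24 h. Of the values of single genes and ratios, 1451 kept their direction and their side of the threshold, 62 lost a call, 26 gained one and 14 changed sign. Signs turned in small changes that had not passed. In R-Scm 12 h vs Rcm, H2-K1 ran from -0.16 to 0.13, H2-D1 from -0.16 to 0.066, Tap2 from -0.065 to 0.19 and Tapbp from -0.10 to 0.24. B2m ran from -0.32 to 0.021 in R-Scm 24 h vs Rcm, Nlrc5 from -0.012 to 0.39 in S-Rcm 24 h vs Scm, Tapbp from -0.19 to 0.13 in R-Scm 24 h vs Scm and from -0.29 to 0.049 in S-Rcm 24 h vs Rcm, and Psmb10 from -0.29 to 0.15 in S-Rcm 12 h vs Rcm.

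Replicate numbers, as the titles give them, gave no clear sign of paired samples, though groups of 3 libraries cannot exclude pairing. Of 45 pairs with the same number 11 had a correlation of deviations above 0.1 (median -0.019), and 8 of 18 libraries were closest to their own number. By the count table's own numbers, 7 of 36 pairs were above 0.1 (median -0.023). With the replicate block, 0 genes were called in S-Rcm 12 h vs Scm, where H2-K1 was lost, and Psmb9 in R-Scm 12 h vs Scm and H2-K1 in R-Scm 24 h vs Scm were lost too.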
